A study of Mus musculus with 8 samples.

Results

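The libraries described here came from the epidermis of newborn mice at P0.5, 0.5 days after birth, with and without Kansl1 in the skin epithelium. They are the 4 of the 8 bulk RNA libraries of the study whose titles carry P0, and they were chosen by those titles. There were 2 control libraries and 2 Kansl1 cKO (conditional knockout) libraries. In Kansl1 cKO pups, Krt14-Cre deleted Kansl1 from a floxed allele (Kansl1fl/fl/K14Cre in the labels), and Krt14 drives Cre in basal epithelial cells of the skin and in their descendants. The deletion is therefore limited to Krt14-expressing cells and their progeny, while melanocytes, immune cells and fibroblasts of the sheet have another origin. The labels call the other group Control, and the methods describe control pups as littermates without giving their alleles. The animals were of a mixed C57Bl/6J and CD-1 background and both sexes were used. Dispase was used to peel the epidermis off the dermis before lysis on TRIzol, so that RNA from every cell type left on the sheet was sequenced, and no cells were sorted. At E16.5, 2 control and 2 MOF cKO libraries (MOFfl/fl/K14Cre in the labels) were made from epithelial cells sorted out of embryonic skin, all carrying H2BGFP, a nuclear reporter driven by Krt14. They are used here only as a second deletion to set beside the Kansl1 cKO.

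KANSL1 is the scaffold of the NSL (nonspecific lethal) complex, which brings together the histone acetyltransferase MOF, encoded by Kat8, with WDR5, MCRS1, PHF20, HCFC1, OGT, KANSL2 and KANSL3. The same acetyltransferase also works in the MSL complex, which is the main source of acetylation of histone H4 at lysine 16. The NSL complex is best known at promoters of broadly expressed genes, and loss of 1 copy of KANSL1 in humans causes Koolen-de Vries syndrome. The comparison of the 2 genotypes asks what the epidermal transcriptome looks like at birth when the NSL scaffold, but not MOF itself, is removed.

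The conditional allele removes exon 3 of the 14 exons of Kansl1, and this exon and the start of the next are shown because they define what the mutant transcript lacks and where its reading frame ends. Kansl1 is transcribed from the minus strand at chr11:104333229-104468861 of mm10, and exon 3 is a coding exon of 142 bases at chr11:104378685-104378826. Both sequences were read 5′ to 3′ along the transcript Kansl1-205 of GENCODE M21, and the capitals in exon 3 mark the match of the forward primer of the study's quantitative PCR, while the capitals at the start of exon 4 (chr11:104368680-104368778) mark stop codons in the frame that follows the loss of exon 3.
exon 3: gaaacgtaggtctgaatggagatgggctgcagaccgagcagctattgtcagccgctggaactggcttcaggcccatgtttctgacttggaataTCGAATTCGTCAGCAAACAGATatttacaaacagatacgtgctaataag
exon 4, first 30 bases: gggtTGATAGtccttggggaggcacctttc
The length of exon 3 leaves a remainder of 1 base after division by 3. A transcript without it keeps 429 codons upstream of the deleted exon, reads 2 codons in the new frame up to 431, and meets 2 stop codons side by side, starting at bases 5 and 8 of exon 4. The full protein has 1036 residues. Exon 3 makes up 2.577% of the transcript of 5510 bases, so a count over the whole gene hardly registers its loss, and transcripts without it are still counted as Kansl1.

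The libraries held 9108709 and 14327981 counts on genes in control 1 and control 2, and 19774643 and 13712311 in Kansl1 cKO 1 and Kansl1 cKO 2. After scaling with TMM factors (trimmed mean of M values, a scaling that makes the bulk of genes comparable), 1 count stood for between 0.0484 and 0.115 CPM (counts scaled to a common library size). All levels below are CPM on this scale and are listed as control 1 and 2, then Kansl1 cKO 1 and 2. The tissue carried the keratins of both basal and suprabasal epidermis, with Krt5 at 8398 and 9251 CPM in control and 8751 and 8682 CPM in Kansl1 cKO, and Krt10 at 29902, 17195, 18269 and 30198 CPM. Cd207, the defining gene of mature Langerhans cells, had 0 counts in all 4 libraries.

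The control libraries differed from each other in the markers of sex and of deeper tissue. Control 2 was the only library with RNA from the Y chromosome: Ddx3y was at 117 CPM, Eif2s3y at 89.7 CPM, Uty at 41.1 CPM and Kdm5d at 34.2 CPM there, and all of them had 0 counts in the other 3 libraries. Xist, the RNA of the inactive X chromosome, was at 1.23 CPM in control 2 and at 427, 371 and 423 CPM in control 1 and the Kansl1 cKO libraries. Control 1 held more RNA from cells beneath the epidermis. A list of 12 skeletal muscle genes summed to 393 CPM in control 1 against 13.2 CPM in control 2 and 8.38 and 7.75 CPM in Kansl1 cKO, with Acta1 at 121 CPM against 1.49, 1.45 and 0.711 CPM, and 7 mast cell genes summed to 29.6 CPM against 5.43, 4.55 and 4.98 CPM. The median absolute difference over 13031 genes was 0.269 on the log2 scale between the controls, 0.215 between the Kansl1 cKO libraries and between 0.286 and 0.374 across genotypes, so the genotypes were only slightly farther apart than the controls were from each other. With 2 libraries per group, p-values set the genotype difference against a spread between these samples, estimated with information shared across genes.

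Kansl1 itself was lower in both Kansl1 cKO libraries, at 31.4 and 30.6 CPM against 40.7 and 48.2 CPM in control. The groups did not overlap, and the fit gave -0.52 ± 0.167 (SE) on the log2 scale with an adjusted p of 0.242 in edgeR. Of its partners, Ogt, the O-GlcNAc transferase, was at 50.0 and 69.4 CPM in control and 90.6 and 83.9 CPM in Kansl1 cKO, and Phf20, a reader of methylated histones, was at 26.9 and 30.2 CPM and then 43.7 and 36.6 CPM. Both lay higher without overlap, with log2 fold changes of 0.54 and 0.49. Kat8, the gene of MOF, was at 15.2 and 19.7 CPM in control and 15.1 and 13.3 CPM in Kansl1 cKO (-0.30), and its groups lay apart by a margin far smaller than the gap between the controls. The other subunits had log2 fold changes of 0.32 for Kansl2, 0.30 for Phf20l1, 0.24 for Hcfc1, 0.14 for Kansl3, -0.10 for Wdr5 and -0.17 for Mcrs1. With 1 library left out, Kat8 ran from -0.47 to -0.13, Kansl2 from 0.08 to 0.51 and Phf20l1 from 0.19 to 0.40. Hcfc1 ran from 0.02 to 0.40 and Mcrs1 from -0.31 to -0.08. Of the 10 NSL genes, 1 was lower and 2 were higher at an unadjusted p under 0.05 (0 higher without control 1 or Kansl1 cKO 1, 0 lower without control 2, and 0 lower and 3 higher without Kansl1 cKO 2), against 8.26% and 7.43% of all genes tested, and the 3 MSL genes Msl1, Msl2 and Msl3 had log2 fold changes of 0.24, 0.21 and 0.09 with none below that p. Per kilobase of exon, control levels ran from 2.86 RPKM (reads per kilobase, on the CPM scale) for Phf20 to 16.1 RPKM for Hcfc1, with Kansl1 at 6.46 and Kat8 at 6.03 RPKM.

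Across the transcriptome the number of genes that passed the adjusted thresholds depended on the tool. With 2 libraries per group, a count of 0 does not show that the difference between genotypes is small. Of 13031 genes tested with edgeR's quasi-likelihood test, 0 (0.0%) passed an adjusted p of 0.01 with a fold change over 1.5, where the lowest adjusted p came to 0.110. Before adjustment, 1077 genes (8.26%) were lower and 968 (7.43%) were higher in Kansl1 cKO at p under 0.05. limma voom also called 0 genes. DESeq2 called 55 genes lower (0.447% of 12314) and 35 higher (0.284%) at the same thresholds. With a replicate block it called 15 lower and 5 higher, of which 11 and 5 were among these. All 90 kept their direction, which a block fitted to the same libraries could hardly turn. Of the 55, 4 were the Y-linked genes above, seen in 1 control library alone and removed by edgeR's filter on low counts, which leaves 51 lower genes. Both Kansl1 cKO libraries lay beyond both control libraries for all of these 86 genes, while 22.7% of all tested genes lay lower and 26.0% higher without overlap. The 86 genes were called from these same libraries, so their separation follows largely from the selection. The fold changes of the called genes ran from 1.82 to 9.90 for the lower and from 1.88 to 13.3 for the higher genes, and their adjusted p from edgeR lay between 0.110 and 0.217. Just inside DESeq2's threshold were Fancg (adjusted p = 0.00936 from DESeq2) and 2810047C21Rik1 (0.00982), and just outside were Serpinb3b (0.0103) and Nol10 (0.0105).

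The number of DESeq2 calls depended on every library. It was 10 lower and 13 higher without control 1, 48 and 4 without control 2, 2 and 1 without Kansl1 cKO 1, and 30 and 7 without Kansl1 cKO 2. The genes called also changed: 10 and 5, 13 and 2, 2 and 1, and 15 and 5 of these were among the original lists. All genes of the original lists that could be fitted kept their direction in each case. Their libraries did not overlap, so leaving 1 out could hardly turn the direction, and this adds no evidence for the calls. With edgeR the counts moved the other way, to 4 and 1, 12 and 0, 64 and 22, and 197 and 76, and in all of these fits the lone library of a group is assumed to vary like the pair that remains. The named genes are therefore given below with the value of each library. Counts of list members at an unadjusted p under 0.05 were as sensitive. In 38 of 42 lists the lower or the higher count changed by more than 1.5-fold, or to or from 0, with at least 1 library left out, and the melanocyte, macrophage, MSL and erythroid lists were the other 4. The MSL list, with 3 tested genes, and the erythroid list, with 1, had 0 genes at that p with all libraries, so they had no count to lose. The share of all genes at that p itself ran from 5.64% to 9.48% lower and from 3.22% to 7.44% higher.

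**Figure D1:**
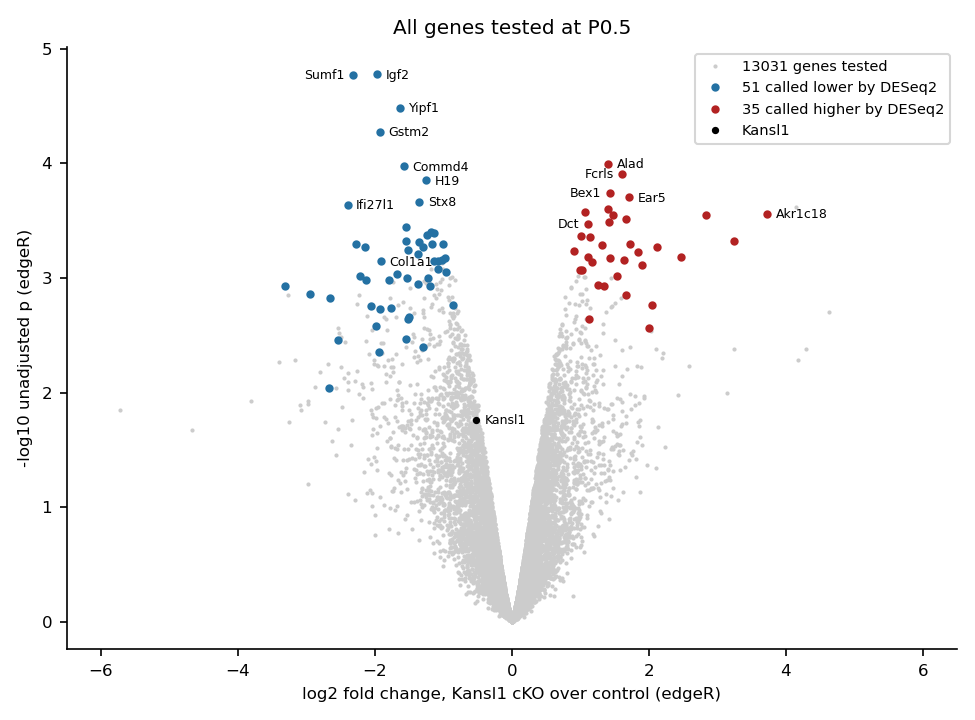
Fitted log2 fold change (x axis, Kansl1 cKO over control, edgeR) against the -log10 of the unadjusted p (y axis, edgeR) for 13031 tested genes, with the 51 lower and 35 higher genes called by DESeq2 in blue and red and Kansl1 in black. Igf2 and Sumf1 stand at the top on the lower side and Alad on the higher side, while Kansl1 with -0.52 lies among the bulk of genes.

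The smallest p of all tested genes belonged to Igf2, the fetal insulin-like growth factor. Igf2 (chr7:142650766-142666816) was at 308 and 319 CPM in control and at 71.7 and 89.0 CPM in Kansl1 cKO, which is -1.96 ± 0.184 (SE) on the log2 scale, with an adjusted p of 0.110 in edgeR and of 2.97e-16 in DESeq2. The libraries within each genotype lay close together, and the gap between genotypes was far wider than the spread inside either. H19 (chr7:142575529-142578143), the noncoding RNA beside it, which is expressed from the maternal chromosome while Igf2 is expressed from the paternal one, was at 1720 and 1761 CPM in control and 693 and 773 CPM in Kansl1 cKO, which is -1.25 ± 0.163 (SE) on the log2 scale, with an adjusted p of 0.176 in edgeR and of 7.36e-08 in DESeq2. Both neighbours were thus lower in the same libraries although they are expressed from opposite parental copies. Per kilobase of exon the level of H19 was 708 RPKM in control and that of Igf2 was 54.8 RPKM.

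Other imprinted genes did not share this pattern as a group. Of 16 tested paternally expressed genes, 8 were lower and 8 higher, with 2 lower (Igf2 and Dlk1) and 1 higher (Nnat) at an unadjusted p under 0.05, against 8.26% and 7.43% of all genes, and of 13 tested maternally expressed genes 6 were lower and 7 higher, with 3 lower (H19, Rian and Meg3) and 1 higher (Ube3a). The 3 became 1 without control 1, and 0 genes of that list were higher at that p in each of the 4 fits with 1 library left out. The higher paternally expressed genes became 0 without Kansl1 cKO 1 and 2 without control 2. Dlk1, a growth regulator of the other large imprinted cluster, was at 37.9 and 13.8 CPM in control and 7.51 and 7.90 CPM in Kansl1 cKO. Rian and Meg3 come from the same cluster, with Rian at 22.3 and 3.49 CPM in control and 3.44 and 2.77 CPM in Kansl1 cKO and Meg3 at 20.3 and 4.65 CPM and then 3.83 and 4.58 CPM. For these genes control 1 was far above control 2, as it was for the muscle genes, and the log2 fold change of Dlk1 was -0.84 without control 1 against -1.73 with it. Of 17 tested genes of the insulin-like growth factor axis, 4 were lower and 3 higher at that p, and the 3 became 1 without Kansl1 cKO 1. The receptors hardly differed, with log2 fold changes of -0.04 for Igf1r, which transmits the signal, and 0.30 for Igf2r, which clears IGF2. Igfbp3, a binding protein that holds the growth factors in the tissue, was at 58.7 and 22.7 CPM in control and 9.20 and 11.3 CPM in Kansl1 cKO (-1.98, and -1.15 without control 1), and Igfbp5 was at 14.4 and 12.2 CPM and then 21.6 and 21.7 CPM (0.71).

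The other lower genes of smallest p stood at moderate levels. Sumf1, which activates all sulfatases by making their catalytic formylglycine, was at 18.8 and 19.5 CPM in control and 3.88 and 3.79 CPM in Kansl1 cKO, which is -2.32 ± 0.217 (SE) on the log2 scale, with an adjusted p of 0.110 in edgeR and of 2.70e-09 in DESeq2. There was almost no spread inside either genotype. Yipf1, a membrane protein of the Golgi, was at 43.9 and 44.7 CPM and then 13.6 and 15.2 CPM (-1.63). Commd4, of the COMM domain family that serves endosomal recycling, was at 32.9 and 39.2 CPM and then 11.04 and 13.4 CPM (-1.57). Stx8, a SNARE protein of late endosomes, was at 29.6 and 26.6 CPM and then 10.2 and 11.9 CPM (-1.35).

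Ddx19b, an RNA helicase that releases mRNA at the nuclear pore, was at 32.4 and 31.4 CPM in control and 13.6 and 15.7 CPM in Kansl1 cKO (-1.13). Ifi27l1, a small protein of the interferon-inducible Ifi27 family, was at 11.2 and 19.8 CPM and then 2.81 and 3.16 CPM (-2.39), so that its controls differed from each other but stood well clear of Kansl1 cKO. Gstm2, a mu class glutathione S-transferase, was at 36.7 and 51.1 CPM and then 11.8 and 11.4 CPM (-1.92). Reads of Gstm2 can be shared with its close paralogs, which makes its level uncertain. Tmem184c was at 12.5 and 13.3 CPM and then 4.50 and 4.27 CPM (-1.55), and BC005624 at 25.2 and 27.2 CPM and then 12.2 and 10.8 CPM (-1.18). Ppt1, the lysosomal thioesterase whose loss causes infantile neuronal ceroid lipofuscinosis, was at 46.9 and 62.6 CPM in control and 22.3 and 24.1 CPM in Kansl1 cKO (-1.24). All 12 of these lower genes, Igf2 and H19 included, were called by DESeq2.

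**Figure D2:**
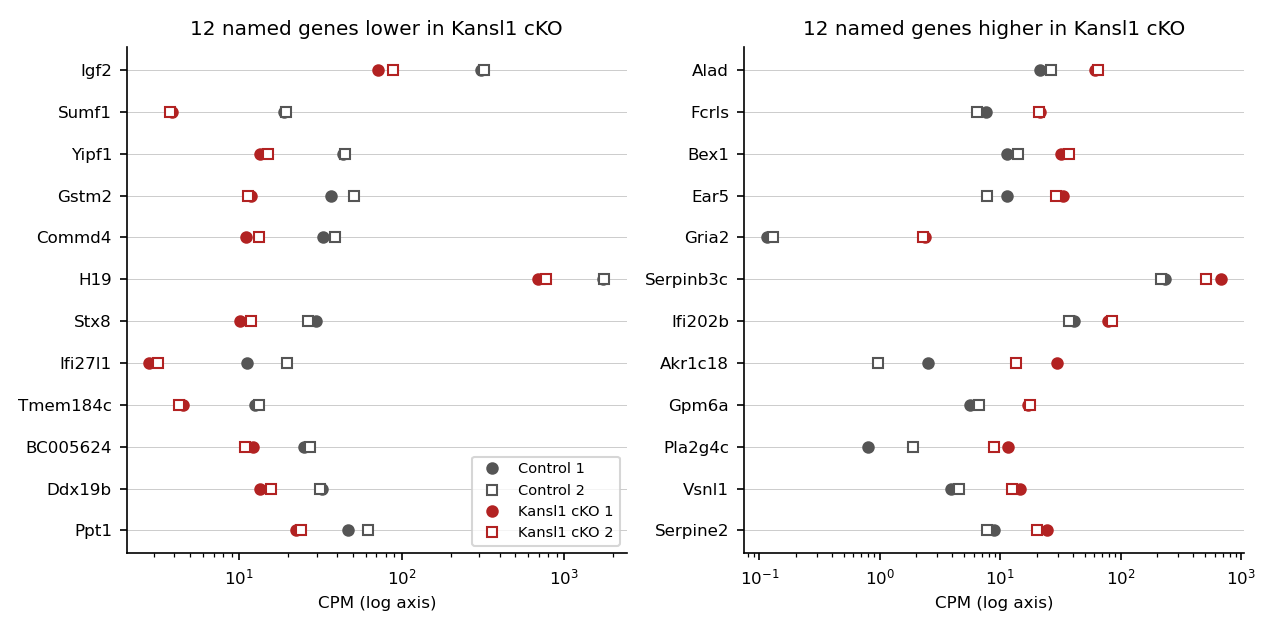
CPM of the 12 lower and 12 higher named genes in each of the 4 libraries (log x axis; grey, control; red, Kansl1 cKO; filled circles, replicate 1; open squares, replicate 2). For every gene the 2 grey symbols lie on 1 side of the 2 red ones, with Igf2 at 308 and 319 against 71.7 and 89.0 CPM, because genes were named only if their libraries did not overlap.

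The gene lists around these genes moved less than the genes themselves. Of 13 tested sulfatases and Sumf genes, 4 were lower (Sumf1, Arsk, Sgsh and Arsa) and 0 higher at an unadjusted p under 0.05, where 8.26% of all genes were lower and 7.43% higher. The median log2 fold change of this list was -0.13, and -0.23 without control 1. The 4 became 1 without control 2 (median -0.0092) and 1 without Kansl1 cKO 1. Arsk was at 12.5 and 14.5 CPM in control and 7.56 and 9.56 CPM in Kansl1 cKO (-0.67). A list of 53 lysosomal genes, added after the data were seen, had 12 lower and 1 higher at that p, with a median of -0.11, and the 12 became 8 without either control and 5 without Kansl1 cKO 1. The median was -0.01 without Kansl1 cKO 1 and -0.23 without Kansl1 cKO 2. DESeq2 called 3 of them lower. Beside Ppt1 these were Lamtor5, a subunit of the Ragulator complex that anchors mTORC1 to the lysosome, at 45.1 and 42.3 CPM and then 21.1 and 22.5 CPM (-1.002), and Man2b2, a lysosomal mannosidase, at 21.7 and 25.8 CPM and then 8.67 and 10.7 CPM (-1.30).

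Detoxifying enzymes differed in both directions. The median log2 fold change of 20 tested glutathione S-transferases was -0.39. It was -0.26 without control 1, -0.40 without control 2, -0.50 without Kansl1 cKO 1 and -0.27 without Kansl1 cKO 2. Of these genes, 8 were lower and 2 higher at an unadjusted p under 0.05, against 8.26% and 7.43% of all genes. The 8 became 5 without Kansl1 cKO 1 and 6 without any of the others. Gstm5 was at 57.1 and 54.3 CPM in control and 25.9 and 31.5 CPM in Kansl1 cKO (-0.96), and Gstk1, the peroxisomal and mitochondrial form, had -1.02. Mgst1, a microsomal form, was at 42.1 and 41.5 CPM and then 72.0 and 59.0 CPM (0.65), and Gsto1, the most abundant member of the list, had 0.15. The aldo-keto reductases held the largest fold change in each direction among the 86 genes called by DESeq2 and tested in edgeR. Akr1e1 was at 13.4 and 10.99 CPM in control and 0.436 and 2.21 CPM in Kansl1 cKO (-3.31), while Akr1c18, which inactivates progesterone, was at 2.52 and 0.970 CPM and then 29.4 and 13.5 CPM (3.73). Both log2 fold changes depended on 1 library: Akr1e1 had -4.77 without Kansl1 cKO 2 and -2.49 without Kansl1 cKO 1, and Akr1c18 had 4.47 without control 1, 3.06 without control 2 and 2.98 without Kansl1 cKO 1. Of 9 tested members of that family, 2 were lower and 1 higher, and reads of Akr1c18 may be shared with paralogs. Of 21 Nrf2 target genes, 1 was lower and 3 were higher at that p (1 higher without Kansl1 cKO 2), with a median of 0.15 that was -0.07 without control 2 and -0.12 without Kansl1 cKO 2.

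Among the higher genes, Alad, an enzyme of heme synthesis, was at 21.2 and 26.2 CPM in control and 61.6 and 64.7 CPM in Kansl1 cKO, which is 1.41 ± 0.174 (SE) on the log2 scale, with an adjusted p of 0.176 in edgeR and of 1.01e-05 in DESeq2. Bex1, an X-linked adaptor best known in neurons, was at 11.5 and 14.1 CPM and then 32.2 and 37.4 CPM (1.43). Serpine2, protease nexin-1, was at 8.94 and 7.76 CPM and then 24.3 and 19.997 CPM (1.42). Pla2g4c, a cytosolic phospholipase A2, was at 0.802 and 1.87 CPM and then 11.5 and 8.85 CPM (2.84, and 3.62 without control 2). In each of them the lowest Kansl1 cKO library was more than 2-fold above the highest control.

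Gpm6a, a neuronal membrane glycoprotein, was at 5.61 and 6.66 CPM in control and 16.9 and 17.6 CPM in Kansl1 cKO (1.48). Vsnl1, a calcium sensor, was at 3.90 and 4.53 CPM and then 14.5 and 12.5 CPM (1.67). Gria2, a subunit of AMPA receptors, had 1 and 2 counts in control and 49 and 29 counts in Kansl1 cKO. The ratio of its summed and scaled counts was 18.9, with an exact 95% interval from 6.23 to 93.6 that covers counting error only, and DESeq2 did not call it (adjusted p = 0.0156). Of 7 Schwann cell genes, 5 were tested, 1 was higher at an unadjusted p under 0.05 against 7.43% of all genes (0 without control 2 or either Kansl1 cKO library), and the list summed to 129 and 130 CPM in control and 154 and 162 CPM in Kansl1 cKO.

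Members of tandem gene families made up others of the higher genes, and their counts are uncertain because copies share sequence. Serpinb3c, of the squamous cell carcinoma antigen serpins, was at 234 and 215 CPM in control and 684 and 509 CPM in Kansl1 cKO (1.41). Its neighbour Serpinb3d was at 7.10 and 9.12 CPM and then 47.3 and 19.997 CPM (2.05), and Serpinb3b lay just outside the DESeq2 threshold. Ear5, an eosinophil-associated ribonuclease, was at 11.5 and 7.76 CPM and then 33.3 and 29.0 CPM (1.72). Ifi202b, of the interferon-inducible p200 family, was at 40.7 and 37.4 CPM and then 78.7 and 85.0 CPM (1.07). Of 35 tested interferon response genes, 5 were lower and 1 higher at an unadjusted p under 0.05 (3 lower without control 2), against 8.26% and 7.43% of all genes, with Ifi27l1 the only one called by DESeq2.

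Nearly all melanocyte genes were higher in Kansl1 cKO. Of 16 markers, 15 were higher, 14 of them at an unadjusted p under 0.05 against 7.43% of all genes, 15 had libraries that did not overlap against 26.0%, and DESeq2 called 4. Their levels summed to 806 and 860 CPM in control and 1516 and 1666 CPM in Kansl1 cKO. Dct, which makes a precursor of eumelanin, was at 247 and 246 CPM in control and 498 and 570 CPM in Kansl1 cKO (1.11), the structural protein gene Pmel was at 140 and 171 CPM and then 302 and 328 CPM (1.02), Tyr, the rate-limiting enzyme of pigment synthesis, was at 35.7 and 44.7 CPM and then 83.1 and 95.2 CPM (1.14), and Tyrp1 was at 18.9 and 16.1 CPM and then 37.4 and 63.6 CPM (1.53). The transcription factor genes Mitf and Sox10 and the receptor gene Kit had log2 fold changes of 1.19, 1.20 and 1.07. Rab38, which keratinocytes also express, was the exception, at 211 and 136 CPM in control and 143 and 190 CPM in Kansl1 cKO. The median over the list was 1.11, against 0.01 over all genes, and was 0.87 without control 1 and 1.39 without control 2. In bulk RNA, more cells of a type and more RNA per cell cannot be told apart, and the part of melanocyte RNA in the other higher genes was not tested.

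Macrophage genes were higher by a smaller margin. Of 21 tested markers, 18 were higher and 10 reached an unadjusted p under 0.05 against 7.43% of all genes, with 0 lower at that p. They summed to 318 and 351 CPM in control and 482 and 511 CPM in Kansl1 cKO. Fcrls, a scavenger receptor of tissue macrophages, was at 7.56 and 6.40 CPM in control and 21.5 and 20.9 CPM in Kansl1 cKO (1.61), and was the only one called by DESeq2. Mrc1, the mannose receptor, was at 8.94 and 8.92 CPM and then 17.4 and 18.8 CPM (1.02), the complement gene C1qb at 23.3 and 28.8 CPM and then 45.8 and 57.4 CPM (0.98), and Ms4a7 at 3.32 and 2.72 CPM and then 7.94 and 8.38 CPM (1.44). Other markers differed little, among them Trem2 (0.05), Cd68 (-0.18) and Itgam (-0.09). Ctss, the most abundant, was at 48.4 and 53.01 CPM and then 73.9 and 79.8 CPM. The median log2 fold change of the list was 0.56, and 0.32 without control 1.

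T cell genes lay at low levels. All 9 tested were higher, 6 of them at an unadjusted p under 0.05 against 7.43% of all genes, and the sums were 13.3 and 12.4 CPM in control and 24.6 and 24.0 CPM in Kansl1 cKO. Cd3g, the most abundant, was at 4.01 and 2.59 CPM and then 6.39 and 6.09 CPM. The 6 became 1 without control 2, 1 without Kansl1 cKO 1 and 2 without Kansl1 cKO 2. Genes of antigen-presenting cells in the Langerhans cell list went the other way, with sums of 19.1 and 34.0 CPM in control and 13.8 and 14.1 CPM in Kansl1 cKO, and 3 of 7 tested lower at that p against 8.26% of all genes (1 without control 2 and 1 without Kansl1 cKO 1). H2-Aa was at 1.95 and 6.21 CPM and then 0.969 and 0.869 CPM (-2.17, and -1.10 without control 2), and Itgax at 3.32 and 3.88 CPM and then 1.502 and 1.58 CPM (-1.23). Cd207, as given above, was at 0 in all libraries.

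**Figure D3:**
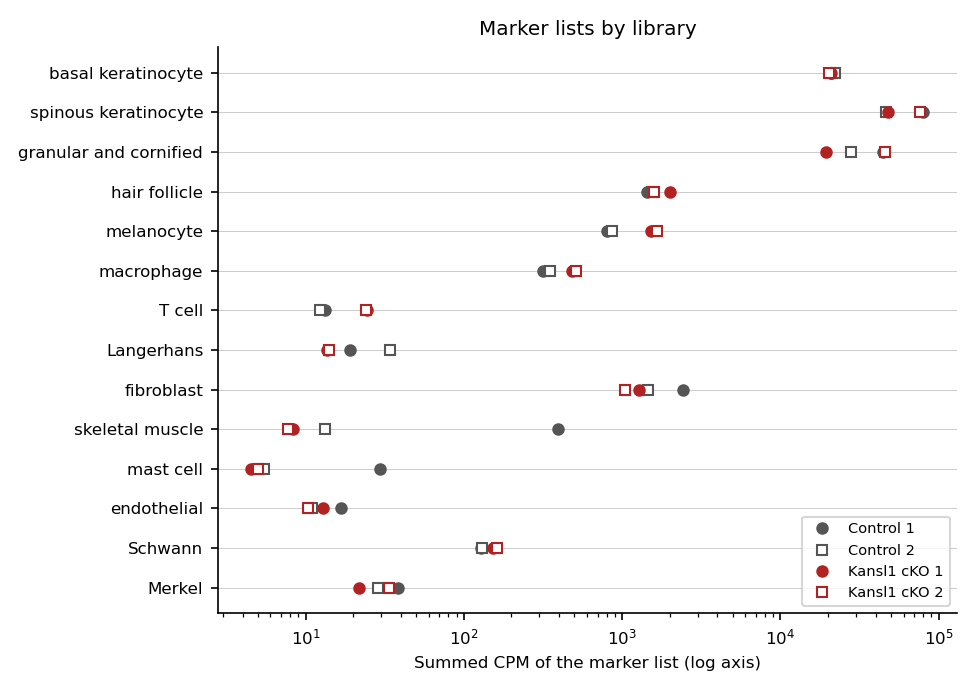
Summed CPM of each marker list (log x axis) in the 4 libraries (grey, control; red, Kansl1 cKO; filled circles, replicate 1; open squares, replicate 2). Melanocyte, macrophage and T cell sums are higher in both Kansl1 cKO libraries, while skeletal muscle at 393 CPM and mast cell genes at 29.6 CPM stand out in control 1 alone.

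Fibroblast genes were lower in Kansl1 cKO, and many of them also differed between the controls. Of 20 tested markers, 17 were lower, 14 of them at an unadjusted p under 0.05 against 8.26% of all genes, and DESeq2 called 6. The list summed to 2439 and 1465 CPM in control and 1285 and 1038 CPM in Kansl1 cKO. Col1a1, the main collagen chain of the dermis, was at 400 and 196 CPM in control and 80.2 and 77.9 CPM in Kansl1 cKO, Col3a1 at 661 and 306 CPM and then 128 and 157 CPM, and Col1a2 at 350 and 181 CPM and then 111 and 105 CPM. Pdgfra, the receptor that marks dermal fibroblasts, was at 21.5 and 6.79 CPM and then 1.89 and 3.004 CPM, and Lrrc15 at 15.8 and 6.40 CPM and then 2.13 and 1.26 CPM. Control 2 lay between control 1 and the Kansl1 cKO libraries for each of these 5 genes. Fbn1, the gene of fibrillin-1, had controls that agreed better, at 36.1 and 29.9 CPM against 15.5 and 13.7 CPM.

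Not every fibroblast gene followed. Dcn, the most abundant of the list, was at 297 and 397 CPM in control and 601 and 392 CPM in Kansl1 cKO. Its log2 fold change of 0.52 ran from 0.14 to 0.80 with 1 library left out, and Fbln1 had 0.30. The median of the list was -1.76, and -1.07 without control 1. The log2 fold changes without control 1 were -1.31 for Col1a1, -1.10 for Col3a1, -0.75 for Col1a2, -1.50 for Pdgfra and -1.87 for Lrrc15, against -1.91, -1.76, -1.30, -2.53 and -2.65 with it. The skeletal muscle list had 5 of 5 tested genes lower at an unadjusted p under 0.05, against 8.26% of all genes. Its median of -3.81 became -0.78 without control 1. The part of RNA from other cells in the lower genes was not tested. Leaving out control 1 does not isolate it, because control 2, the only library with Y-linked RNA, is then the sole control. Among 51 genes called lower by DESeq2, control 1 was more than 1.5-fold above control 2 in 12, and 5 showed the reverse, while 34 had controls within 1.5-fold of each other. The 12 were Aspn, Col1a1, Col1a2, Col3a1, Gm14295, Igfbp3, Lama2, Lamc3, Lrrc15, Nid1, Pcolce and Pdgfra. Over all tested genes, 1132 had control 1 and 1443 had control 2 more than 1.5-fold higher.

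The list of basement membrane genes had its median at 0.05 on the log2 scale, and at -0.11 without Kansl1 cKO 1. Of 30 tested, 1 was lower and 3 were higher at an unadjusted p under 0.05, against 8.26% and 7.43% of all genes, and DESeq2 called 1. The 3 became 1 without control 1 and 1 without Kansl1 cKO 1. Nid1, a linker of laminin and collagen IV, was at 85.4 and 38.5 CPM in control and 21.7 and 20.3 CPM in Kansl1 cKO (-1.55, and -0.87 without control 1). Npnt, a ligand of integrin alpha8, was at 45.1 and 52.0 CPM and then 103 and 72.2 CPM (0.85, and from 0.53 to 1.08 with 1 library left out). The most abundant member was Col17a1, the hemidesmosomal collagen of basal keratinocytes. The laminin chain genes Lamc3 and Lama2, which are not in the list, were called lower by DESeq2. Lamc3 was at 30.9 and 13.7 CPM and then 5.09 and 4.35 CPM (-2.22), and Lama2 at 32.3 and 11.6 CPM and then 5.72 and 5.53 CPM (-1.94), with control 2 between control 1 and the Kansl1 cKO libraries as for Nid1.

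The sums of the suprabasal keratinocyte layers overlapped between genotypes. Basal markers summed to 20895 and 22185 CPM in control and 20860 and 20254 CPM in Kansl1 cKO, so that both Kansl1 cKO sums lay below both controls by small amounts. At an unadjusted p under 0.05, 8.26% of all genes were lower and 7.43% higher. Of the 15 genes only Trp63, the master regulator of stratified epithelium, had an unadjusted p under 0.05, at 312 and 311 CPM and then 439 and 384 CPM (0.40), and without control 1 or either Kansl1 cKO library 0 did. Spinous markers summed to 80050 and 46248 CPM and then 48156 and 76082 CPM, and Krt1 was at 35393 and 18084 CPM and then 20488 and 31016 CPM. Control 1 and Kansl1 cKO 2 were the high pair and control 2 and Kansl1 cKO 1 the low pair, so that this axis ran across genotype. The granular and cornified list did the same, at 44710 and 27887 CPM and then 19438 and 45540 CPM. Of its 32 tested genes 25 were lower, with 0 at an unadjusted p under 0.05 and a median of -0.13, and the median was 0.22 without control 1, 0.36 without Kansl1 cKO 1, -0.44 without control 2 and -0.91 without Kansl1 cKO 2, where 24 genes were lower at that p against 9.48% of all genes. Of 9 tested stress keratins and alarmins, which rise in injured epidermis, 0 reached that p, and of 34 barrier lipid genes 1 did. Both lists turned with the library left out. The stress list had a median of 1.09 and 4 higher genes without control 1, -1.37 and 5 lower genes without control 2, -0.12 and 0 genes without Kansl1 cKO 1, and -1.21 and 6 lower genes without Kansl1 cKO 2. The barrier lipid median was 0.13 without control 1 and 0.12 without Kansl1 cKO 1, -0.33 without control 2, and -0.51 with 14 lower genes without Kansl1 cKO 2.

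Most hair follicle and proliferation genes had positive log2 fold changes. Of 25 tested hair follicle genes, 19 were higher, 5 of them at an unadjusted p under 0.05 against 7.43% of all genes, with a median log2 fold change of 0.34. The 5 became 1 without control 1 (median 0.20) and 3 without Kansl1 cKO 1 (0.21), and were 6 without either of the others (0.51 and 0.43). Sox9, a regulator of follicle stem cells, was at 37.9 and 40.6 CPM in control and 72.9 and 52.3 CPM in Kansl1 cKO (0.67, and from 0.38 to 0.89 with 1 library left out). Shh, the morphogen of the growing follicle, was at 24.9 and 40.2 CPM and then 72.9 and 49.4 CPM (0.90), while Gli1, a direct readout of Hedgehog signalling, was at 143 and 150 CPM and then 117 and 91.8 CPM (-0.48). Of 14 tested Hedgehog genes 1 was lower and 3 were higher at that p, and 1 was higher without control 1, control 2 or Kansl1 cKO 1. Of 35 proliferation genes, 27 were higher, 7 of them at that p, with 0 lower at that p and a median of 0.36. Birc5, the gene of survivin, was at 20.7 and 24.2 CPM and then 41.6 and 33.6 CPM (0.74), and Mki67, the most abundant, was at 187 and 248 CPM and then 371 and 254 CPM (0.52). The median of this list was 0.14 without control 1 and 0.02 without Kansl1 cKO 1, and 0.60 and 0.58 without control 2 and Kansl1 cKO 2. Without Kansl1 cKO 1, 19 genes lay higher and 16 lower, and without control 1 these were 20 and 15. They were 29 and 6 without control 2, and 32 and 3 without Kansl1 cKO 2. The genes at that p also changed with each library left out, and without Kansl1 cKO 1 they lay on the lower side. In Kansl1 cKO 1, whose cornified genes were lowest, the proliferation list had its highest sum of 2976 CPM, against 1838 and 2397 CPM in control and 2207 CPM in Kansl1 cKO 2, and the part of that library in the difference was measured only by leaving it out.

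Targets of the tumour suppressor p53 differed by small amounts. Of 39 tested, 27 were higher, with 6 higher and 1 lower at an unadjusted p under 0.05, against 7.43% and 8.26% of all genes, and a median of 0.18. The 6 became 3 without either Kansl1 cKO library, and the 1 became 3 without Kansl1 cKO 2. The median was 0.32 without control 1, 0.10 without control 2, 0.37 without Kansl1 cKO 1 and 0.12 without Kansl1 cKO 2. Apaf1, the core of the apoptosome, was at 15.2 and 20.04 CPM in control and 34.5 and 28.3 CPM in Kansl1 cKO (0.83), and Trp73, a p53 relative, was at 28.1 and 28.7 CPM and then 49.2 and 39.9 CPM (0.65). Perp, the most abundant of the list and a desmosomal protein, had -0.11. Of 37 tested genes of the apoptosis machinery, 3 were lower and 5 higher, with a median of 0.04 (-0.06 without control 1), and 1 and 1 without Kansl1 cKO 1. Of 24 immediate early and heat shock genes, 20 were higher and 4 reached that p. The number higher was 13 without control 2 and 12 without Kansl1 cKO 2 (median -0.03), and those at that p were 1 without control 1 and 2 without control 2. Jun was at 125 and 134 CPM and then 218 and 212 CPM (0.73), and Atf3, at 6.07 and 11.96 CPM and then 47.5 and 16.0 CPM (1.79), had 0.77 without Kansl1 cKO 1.

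**Figure D4:**
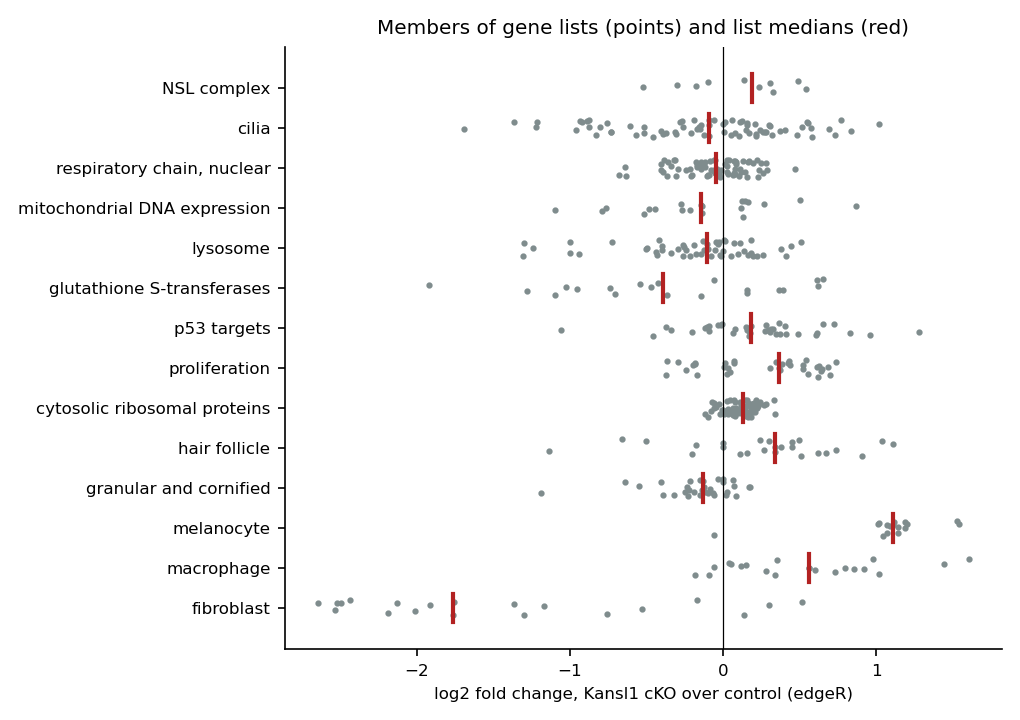
Fitted log2 fold change of each tested member (grey points, Kansl1 cKO over control, edgeR) of 14 gene lists, with the list median in red; the vertical position of points within a list carries no value. Melanocyte genes lie around 1.11 with Rab38 apart and fibroblast genes around -1.76, while cilia (-0.09) and respiratory chain genes (-0.04) straddle 0.

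Genes of the primary cilium and of mitochondria lay around 0 on the log2 scale of the difference. Of 75 tested ciliary genes, 40 were lower and 35 higher, 10 and 5 of them at an unadjusted p under 0.05 against 8.26% and 7.43% of all genes, with a median log2 fold change of -0.09 that ran from -0.25 without control 1 to 0.09 without control 2. The counts of 10 lower and 5 higher genes became 16 and 3 without control 1, 2 and 7 without control 2, 6 and 1 without Kansl1 cKO 1, and 2 and 6 without Kansl1 cKO 2. Mks1, of the ciliary transition zone, was at 7.56 and 8.79 CPM in control and 3.15 and 1.82 CPM in Kansl1 cKO (-1.69), and Tmem237, of the same zone, at 4.81 and 6.72 CPM and then 2.66 and 2.29 CPM (-1.22). Rfx3, a transcription factor of ciliary genes, was at 4.58 and 4.91 CPM and then 10.3 and 9.01 CPM (1.02), and Ift20, the most abundant of the list, had -0.16. DESeq2 called 0 of these genes.

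Of 75 tested nuclear-encoded subunits of the respiratory chain, 44 were lower and 31 higher, 6 and 1 of them at an unadjusted p under 0.05, with a median of -0.04. Over all genes 8.26% were lower and 7.43% higher at that p, so the share of lower genes was that of the background, and the 6 became 3 without either Kansl1 cKO library. Ndufa9, a complex I subunit, was at 132 and 123 CPM in control and 77.9 and 81.3 CPM in Kansl1 cKO (-0.68), and Ndufb7 at 37.9 and 39.2 CPM and then 25.9 and 23.8 CPM (-0.63). Of 20 tested genes that express mitochondrial DNA, 4 were lower and 0 higher at that p, against 8.26% lower over all genes, with a median of -0.14. The 4 became 1 without control 2, where the median was 0.05, and 1 without Kansl1 cKO 2. Elac2, which trims mitochondrial tRNA, was at 32.9 and 28.5 CPM and then 16.8 and 18.7 CPM (-0.79). Cytosolic ribosomal protein genes were higher in 62 of 73 by small amounts, with a median of 0.13 and 0 at that p. Of 25 cholesterol synthesis genes 3 were higher at that p, and 0 without Kansl1 cKO 2, and of 27 tested replication-dependent histone genes, which a poly(A) selection captures poorly, 1 was lower.

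Near the targeted locus, 49 of 77 genes within 2 Mb of Kansl1 were tested. Of these, 25 were lower and 24 higher, 5 and 5 at an unadjusted p under 0.05 against 8.26% and 7.43% of all genes, and DESeq2 called 0. The 5 higher genes became 1 without control 1, 1 without control 2 and 0 without Kansl1 cKO 1. Ccdc43 was at 13.2 and 15.6 CPM in control and 5.43 and 7.67 CPM in Kansl1 cKO (-1.15), and Eftud2, a core factor of the spliceosome, at 79.6 and 91.5 CPM and then 63.2 and 56.5 CPM (-0.52). Smarcd2, the most abundant neighbour, was at 190.2 and 243 CPM and then 279 and 268 CPM (0.34).

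The E16.5 libraries allow the Kansl1 cKO genes to be set beside loss of MOF, the acetyltransferase of the same complex. The experiments share no samples. Stage, isolation (sorted cells against whole sheets), sequencer and the sex make-up of the groups all differ between them and cannot be told apart from the gene deleted. Xist had a log2 fold change of 0.90 in Kansl1 cKO and -6.12 in MOF cKO. In MOF cKO, edgeR called 1338 genes lower (9.59% of 13956) and 1395 higher (10%). Of the 51 genes that DESeq2 called lower in Kansl1 cKO, 49 were tested at E16.5, and 22 of those (44.9%) were called lower in MOF cKO and 5 (10.2%) higher. The 22 genes make up 1.64% of the MOF cKO list. Of the 35 higher genes, 31 were tested, and 8 (25.8%) were called higher, which is 0.573% of the MOF cKO higher list, and 1 lower. These overlaps rest on the DESeq2 calls without a replicate block and were not taken again with it.

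Of the 12 lower named genes, 7 were called lower in MOF cKO, namely Sumf1, Yipf1, Commd4, Stx8, Ifi27l1, Ddx19b and Ppt1, and 11 had log2 fold changes below 0 there, with a median of -1.80. Sumf1 was at 17.6 and 16.0 CPM in E16.5 control and 3.97 and 4.62 CPM in MOF cKO (-1.97 on the log2 scale), and the difference between the effects of the deletions was -0.32 ± 0.289 (SE, adjusted p = 0.488 in edgeR). Yipf1 was at 23.4 and 23.3 CPM and then 5.52 and 4.28 CPM (-2.26). Commd4 had -1.92 and Ppt1 -1.76. A p that misses the threshold does not show that the effects are alike.

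Igf2 behaved differently in the E16.5 libraries. It was at 540.1 and 373 CPM in E16.5 control and 405 and 365 CPM in MOF cKO, with overlapping libraries and a log2 fold change of -0.25. The effect in Kansl1 cKO was lower by 1.69 on the log2 scale (SE 0.264, adjusted p = 0.00662 in edgeR's test of the difference). That adjusted p was 0.0252 with a replicate block and from 0.00621 to 0.0249 with 1 library left out, and the difference kept its sign throughout, from -1.54 to -1.97. H19 was at 3272 and 2622 CPM and then 2212 and 1879 CPM (-0.53), and its difference of -0.69 did not pass in edgeR (adjusted p = 0.0546), while DESeq2 gave -0.78 with an adjusted p of 0.00919 and passed it. Of the 11 higher named genes tested at E16.5, 4 were called higher in MOF cKO, namely Fcrls, Bex1, Ifi202b and Serpine2, and all of them differed between the deletions, with the larger effect in MOF cKO. None of these 4 differences passed with a replicate block, and of the 8 fits with 1 library left out, Fcrls missed the threshold in 6, Bex1 and Serpine2 in 4 and Ifi202b in 3. Serpine2 was at 27.1 and 27.3 CPM in E16.5 control and 227 and 267 CPM in MOF cKO.

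Over 14565 genes in a fit of all 8 libraries, the effect of the Kansl1 deletion was lower than that of the MOF deletion for 256 genes and higher for 170, together 2.92%. These counts fell to 1 and 0 with a replicate block. With 1 library left out they were 61 and 31 without E16.5 control 1, 86 and 19 without E16.5 control 2, 71 and 27 without MOF cKO 1, 126 and 44 without MOF cKO 2, 69 and 12 without P0.5 control 1, 288 and 135 without P0.5 control 2, 95 and 41 without Kansl1 cKO 1, and 234 and 118 without Kansl1 cKO 2. Of the 419 such genes tested in both experiments, 392 were called in MOF cKO and 109 had an unadjusted p under 0.05 in Kansl1 cKO. In the ciliary list 17 of 77 genes (22.1%) differed, all with the higher value in Kansl1 cKO, and the list had medians of -0.09 in Kansl1 cKO and -1.28 in MOF cKO. For p53 targets 13 of 40 differed, all lower in Kansl1 cKO (medians 0.18 and 1.23), and for macrophage genes 12 of 22. With 1 library left out these counts ran from 4 to 17 for the ciliary list, from 2 to 12 for p53 targets and from 6 to 13 for macrophage genes, with the smallest ciliary and macrophage counts without P0.5 control 1, and all were 0 with a replicate block. Of 75 respiratory chain genes 0 differed in edgeR and 6 in DESeq2, all 6 with the lower value in Kansl1 cKO. Over all genes DESeq2 picked out 942 lower and 492 higher. The E16.5 cells were sorted for an epithelial reporter and the P0.5 sheets were not, which cannot be told apart from the deleted gene in the macrophage values.

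**Figure D5:**
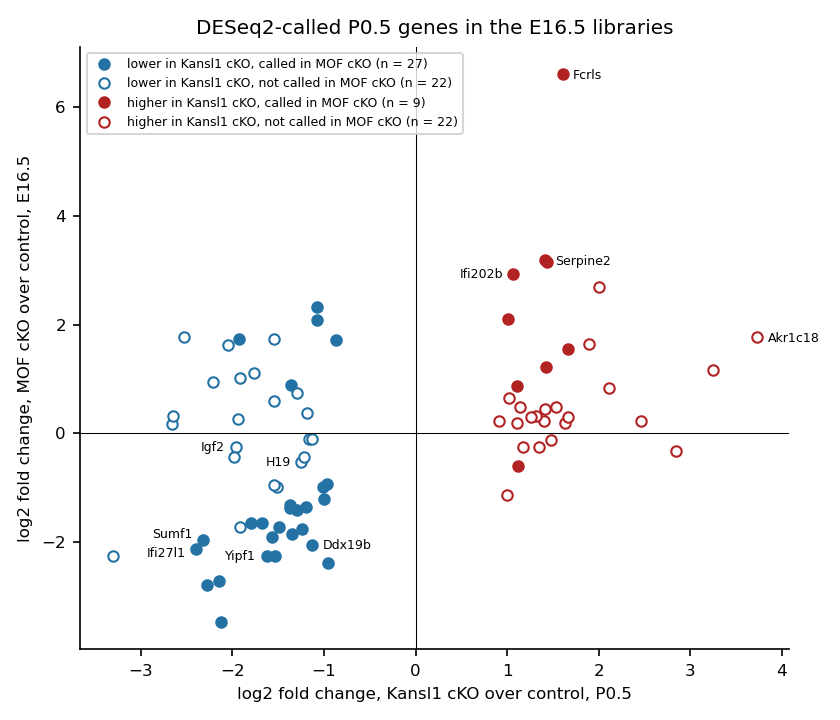
Log2 fold change in Kansl1 cKO at P0.5 (x axis) and in MOF cKO at E16.5 (y axis) for the DESeq2-called P0.5 genes tested in both, with blue for lower and red for higher in Kansl1 cKO and filled circles for genes called in MOF cKO. Of the lower genes 27 were called in MOF cKO, 22 of them lower, and Igf2 lies at -0.25 on the MOF axis against -1.96 on the Kansl1 axis.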

How the data were processed

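Polyadenylated RNA of 4 P0.5 epidermal sheets was sequenced from libraries made with a directional kit. The authors deposited raw HTSeq counts per gene symbol (23432 symbols), without normalization. The article's methods name HISAT2 as aligner and the submitters' processing notes list TopHat2 and HTSeq, with mm10 as the build. Between 21.1% and 24.0% of a library's reads stood under labels other than genes and were left out, and 98.4% of symbols matched GENCODE M21 of the same build. Counts were filtered with filterByExpr, scaled with TMM and tested with edgeR 4.0.16 (glmQLFTest, R 4.3.3) with Benjamini-Hochberg adjustment, at an adjusted p of 0.01 and a fold change over 1.5. DESeq2 1.42.0 at the same thresholds, the tool of the methods, was a second test, and limma 3.58.1 was an alternative. The biological coefficient of variation was 0.197 with 2 residual degrees of freedom. The difference between deletions was tested in edgeR over 8 libraries. The fits were checked for the sign and size of known changes in simulated counts, and no power is read from that check.

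Genes were named by rule: NSL and MSL subunits, the 12 lower and 12 higher genes of smallest p among those with a mean of at least 1 CPM, a fold change over 1.5 and libraries that did not overlap (1118 and 838 qualified), and up to 4 members and the most abundant member of each list. Igf1r, Igf2r, Mitf, Sox10, Kit, Rab38, Trem2, Cd68, Itgam, Pdgfra, Col1a2, Fbln1, Serpinb3d, Lamc3 and Lama2 were chosen after their values were seen. The libraries, lists and rules were chosen with earlier results of these data known. The lysosomal list, a crossed pairing and the list counts and differences between deletions without a library were added after seeing the data. Other scalings, filters, thresholds, a replicate block, a fit of all libraries and leaving out each library were tried.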

Additional observations from a re-analysis of the deposited data

Results flagged for a closer look

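The test of the difference between deletions picked out 256 genes with a lower and 170 with a higher effect in Kansl1 cKO than in MOF cKO. Of the 12 lower and 12 higher named genes, 7 were among them. With a replicate block none of these 7 passed, with adjusted p from 0.0160 for Gria2 to 0.0314 for Fcrls in edgeR. BC005624 also missed the threshold with library size alone (0.0147) and with any 1 of the 8 libraries left out (0.0101 to 0.0243). With 1 library left out, Igf2 and Fcrls missed it in 6 of 8 fits, Bex1 and Serpine2 in 4, and Ifi202b and Gria2 in 3. These genes differ between experiments of another stage, isolation, sequencer and sex make-up, which cannot be told apart from the deleted gene. Among the genes lower in Kansl1 cKO, the difference was -1.69 on the log2 scale for Igf2 (adjusted p = 0.00662 from edgeR) and -1.54 for BC005624 (adjusted p = 0.00504 from edgeR), which had log2 fold changes of -1.18 in Kansl1 cKO and 0.38 in MOF cKO. Among the genes higher in both, the difference was -1.70 for Bex1, -1.83 for Ifi202b and -1.73 for Serpine2. For Fcrls it was -4.86, with E16.5 control libraries at 0 and 0.0361 CPM, so that its size rests on few counts. For Gria2 it was 6.01, with 14.5 and 8.48 CPM in E16.5 control and 4.27 and 2.33 CPM in MOF cKO, against 1 and 2 counts in P0.5 control. Among genes named from the cell lists, C1qb, Ms4a7 and Pdgfra also differed, by -4.65, -6.65 and -4.28 (adjusted p = 0.000693, 0.00609 and 0.00998 from edgeR). Ms4a7 was at 0 CPM in both E16.5 control libraries, and with a replicate block 0 macrophage genes passed.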

How the results depend on the processing

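Of 1120 log2 fold changes of 80 genes under other settings, 6 changed sign, all with 1 library left out and in genes near 0: Kansl3 (-0.0092 to 0.24), Msl2 (-0.063 to 0.42), Msl3 (-0.014 to 0.18) and Wdr5 (-0.29 to 0.047). Of 287 list medians, 221 moved by less than the replicate spread and 66 by more. The 0 calls of edgeR became 55 lower and 35 higher with DESeq2, 117 and 73 without a filter on low counts beyond 1 count, 1 lower with library size alone, and from 4 to 197 lower and 0 to 76 higher with 1 library left out. limma voom, other scaling factors, a filter of 1 CPM, looser thresholds and a fit of all 8 libraries also gave 0. The 968 higher genes at an unadjusted p under 0.05 became 505 with library size alone and from 432 to 997 with 1 library left out, and the 1077 lower ones from 758 to 1287. DESeq2's 55 lower and 35 higher calls became 128 and 79 at an adjusted p of 0.05 and 2 to 48 and 1 to 13 with 1 library left out, and a fit of all 8 libraries gave 91 higher. The 256 and 170 genes that differed between deletions became 942 and 492 with DESeq2, and 61 to 288 and 12 to 135 with 1 library left out. The cause was not tested. The methods describe 2 pairs of P0.5 samples with littermate controls. Replicate numbers are shared between groups, but the labels do not say whether they mark litters. Deviations of same-numbered libraries did not go together (correlation -0.202). With 2 libraries per group, crossed numbers give the same value with its sign turned (0.202), so this check cannot settle the pairing. The libraries were taken as unpaired. With a replicate block, edgeR called 0 genes, 594 were higher at an unadjusted p under 0.05, DESeq2 called 15 lower and 5 higher, and 1 lower and 0 higher genes differed between deletions. A crossed pairing, chosen after seeing the data, gave 1 lower edgeR call, 1532 genes higher at an unadjusted p under 0.05 and 57 higher DESeq2 calls. Depth limits low genes: 3 counts stand for 0.145 to 0.344 CPM.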

Other observations

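Other cell types of the sheet were sparse. At an unadjusted p under 0.05, 8.26% of all genes were lower and 7.43% higher. Of 9 Merkel cell genes, 1 was higher at that p, and they summed to 38.2 and 28.5 CPM in control and 21.7 and 33.8 CPM in Kansl1 cKO. Of 12 endothelial genes 6 were tested and 0 reached that p from edgeR, with sums of 16.7, 10.99, 12.8 and 10.4 CPM. Adipocyte genes, of which 3 were tested and 1 was lower, summed to 36.9 and 28.4 CPM and then 16.7 and 16.0 CPM. Smooth muscle genes, of which 2 were tested and 1 was lower, summed to 54.4, 43.6, 42.8 and 57.1 CPM, and erythroid genes, of which Alas2 alone was tested, to between 2.46 and 5.50 CPM.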
